A study of Mus musculus with 12 samples.

Results

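The 10 genes described here are Marco, Msr1, Cd163, Cd5l, Clec4f, Timd4, Vsig4, C1qa, C1qb and C1qc, which encode scavenger receptors, other surface receptors and complement C1q subunits of liver macrophages. They were taken by symbol from the probe sets with a single gene symbol, and each gene was read from its probe set with the highest mean over the 12 arrays. All 10 of 10 were found, among 18194 genes with a single symbol, and all 10 passed the filter on dim probe sets in each group's mean, among 12755 genes tested.

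Kupffer cells are the resident macrophages of the liver and line its sinusoids, where they bind bacteria, damaged cells and modified lipoproteins from portal blood. MARCO and MSR1 are class A scavenger receptors, CD163 takes up haemoglobin bound to haptoglobin, and CD5L is a soluble scavenger protein. CLEC4F and TIMD4 mark resident Kupffer cells in mice, VSIG4 binds complement fragments, and C1q starts the classical complement pathway. TGF-β1 restrains T cells and macrophages, and IFN-γ is the main T cell cytokine that activates macrophages.

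The study, on acute autoimmune hepatitis in mice, measured RNA from whole liver on 12 arrays of 45101 probe sets each, 1 mouse per array and 3 per group, all on the BALB/c background. TGFB KO mice lack Tgfb1 and carry intact Ifng, and WT mice carry both genes. IFNko TGFB1 KO mice are labelled as lacking both genes, and INFko TGFB+ mice as lacking Ifng and carrying Tgfb1. The design text calls the controls TGF-β1+/+ littermates, while the label TGFB+ does not state whether 1 or both copies are intact. Both genes are missing from the whole animal and not from macrophages alone. The age and sex of the mice are not given here. Values below are deposited signals, a linear intensity in arbitrary units, and fold changes are differences of quantile-normalized log2(signal + 16) with their standard error. A gene was called at a Benjamini-Hochberg adjusted p under 0.05 over the 12755 genes in limma's moderated test on n = 3 arrays per group.

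The Tgfb1 probe set read 71.2, 87.6 and 45.5 in TGFB KO livers, against 391, 455 and 110.0 in WT livers (log2 fold change -1.82 ± 0.44, adjusted p = 0.0105). It read 24.9, 52.1 and 43.8 in IFNko TGFB1 KO livers, against 221, 164 and 180 in INFko TGFB+ livers (-2.04 ± 0.44, adjusted p = 0.0056). The groups did not overlap in either pair. With the mean of all Tgfb1 probe sets the changes were -0.85 and -0.99, both still called. The Ifng probe set gave 83.9, 54.3 and 44.6 in the livers labelled IFNko TGFB1 KO, against 7.6, 1.1 and 7.5 in INFko TGFB+ livers. In livers with intact Ifng it gave 23.3, 25.9 and 5.9 in WT and 85.9, 94.3 and 202 in TGFB KO. Every liver labelled IFNko TGFB1 KO thus read above every WT liver for this probe set. The Ifng probe set thus gave a signal in livers labelled as lacking Ifng, and whether that signal bears on the genotype was not tested. The position of the probe set relative to the disrupted part was not analysed here, so the genotype of these livers is given as labelled throughout. Replicate 1 of IFNko TGFB1 KO was unlike the remaining arrays. Its median signal was 61.3, against 33.8 to 42.6 on the other 11, and it had rank correlations of 0.754 to 0.809 with them, where the other 11 correlated at 0.816 to 0.912 among themselves. Each count below that uses this array was repeated without it: all 10 genes were then still called in IFNko TGFB1 KO against INFko TGFB+, and none in the comparisons of the 2 Tgfb1-deficient groups or of the 2 effects.

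In TGFB KO livers against WT livers, all 10 genes rose, in a comparison in which 12.2% of the 12755 tested genes were called higher and 24.1% in either direction. The median of the 10 log2 fold changes was 2.48, from 1.21 for Vsig4 to 4.52 for Marco, beside a median of -0.06 over all tested genes. For each of the 10, every TGFB KO array lay above every WT array, as was so for 18.4% of tested genes, while 21.9% lay below without overlap.

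In IFNko TGFB1 KO livers against INFko TGFB+ livers, all 10 genes rose again, where 12.7% of tested genes were called higher and 25.8% in either direction. The median was 2.31, from 1.04 for Clec4f to 5.08 for Marco, beside -0.01 over all tested genes. The groups again did not overlap for any of the 10, as was so for 22.2% of tested genes in this direction and 23.3% in the other. In bulk liver RNA, more macrophages and more RNA of a gene per macrophage cannot be told apart, and this holds for every change given here.

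**Figure D1:**
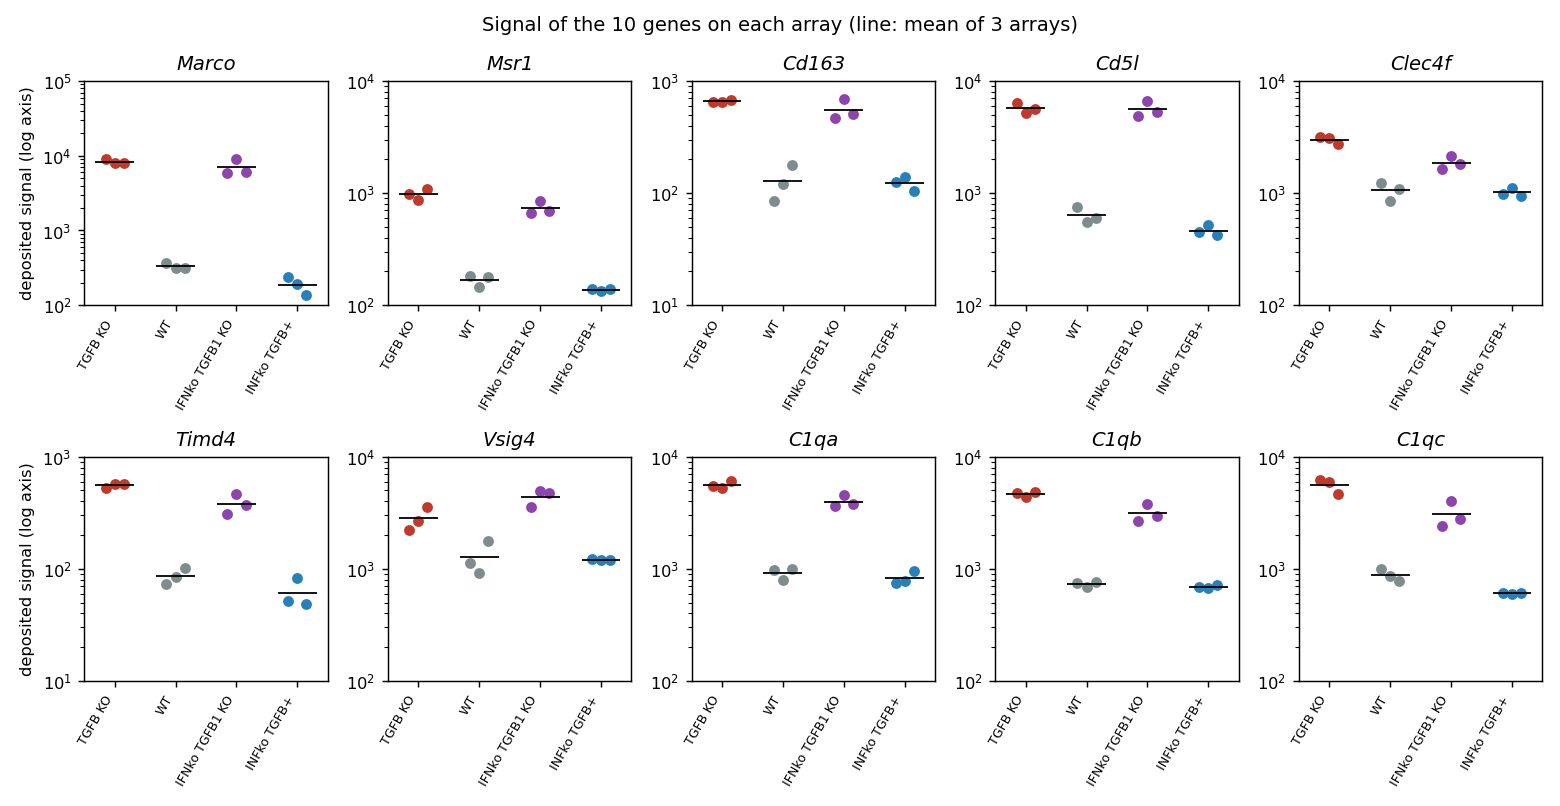
Deposited signal (arbitrary units, log axis) of the 10 genes, with 1 point per array, 3 arrays per group, and a line at the group mean. In every panel the 3 TGFB KO points lie above the 3 WT points and the 3 IFNko TGFB1 KO points above the 3 INFko TGFB+ points.

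Among the scavenger receptors, Marco, whose product binds bacteria and particles, moved furthest. Its signal was 9019, 8069 and 7935 in TGFB KO livers, against 372, 318 and 316 in WT livers. It was 5922, 8992 and 6000 in IFNko TGFB1 KO livers, against 236, 194 and 138 in INFko TGFB+ livers. Every Tgfb1-deficient liver thus lay far above every Tgfb1-positive one. The change was 4.52 ± 0.21 in TGFB KO (23.0-fold, adjusted p = 6.96e-07) and 5.08 ± 0.21 in IFNko TGFB1 KO (33.7-fold, adjusted p = 3.66e-07), which ranked 18th and 3rd from the top of all tested genes. The second Marco probe set gave 4.19 and 5.04.

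Msr1 encodes the class A receptor for modified lipoproteins. Its signal was 974, 867 and 1091 in TGFB KO livers, against 181, 146 and 177 in WT livers (2.38 ± 0.16, 5.19-fold, adjusted p = 3.23e-06). It was 670, 845 and 695 in IFNko TGFB1 KO livers, against 140, 133 and 139 in INFko TGFB+ livers (2.31 ± 0.16, 4.96-fold, adjusted p = 6.99e-06). The INFko TGFB+ livers were the lowest and lay closest together, and neither pair overlapped. Of the other 3 Msr1 probe sets, 2 gave 2.50 and 1.94 in TGFB KO and 1.96 and 1.93 in IFNko TGFB1 KO. The dimmest one gave 2.54 in TGFB KO but 0.44 in IFNko TGFB1 KO, and so disagreed with the other 3 there.

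Cd163, the haemoglobin scavenger receptor, read 646, 647 and 680 in TGFB KO livers, against 84.8, 120 and 178 in WT livers (2.20 ± 0.24, adjusted p = 6.48e-05). In IFNko TGFB1 KO livers it read 465, 685 and 512, against 125, 141 and 105 in INFko TGFB+ livers (2.00 ± 0.24, adjusted p = 0.000202). The lowest Tgfb1-deficient liver exceeded the highest Tgfb1-positive liver in both pairs. Cd5l encodes a protein that macrophages secrete and that binds microbial and lipid ligands. It read 6359, 5237 and 5636 in TGFB KO livers, against 757, 554 and 601 in WT livers (3.09 ± 0.18, 8.53-fold, adjusted p = 1.73e-06). It read 4870, 6671 and 5262 in IFNko TGFB1 KO livers, against 454, 515 and 424 in INFko TGFB+ livers (3.64 ± 0.18, 12.5-fold, adjusted p = 5.49e-07). After Marco it had the largest change of the 10 in both comparisons.

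Clec4f, a lectin gene used as a marker of resident Kupffer cells in mice, moved less. Its signal was 3155, 3100 and 2771 in TGFB KO livers, against 1242, 852 and 1098 in WT livers (1.54 ± 0.18, 2.91-fold, adjusted p = 0.000137). It was 1649, 2135 and 1819 in IFNko TGFB1 KO livers, against 990, 1103 and 952 in INFko TGFB+ livers (1.04 ± 0.18, 2.06-fold, adjusted p = 0.00198). Both groups of Tgfb1-deficient livers lay above their controls without overlap, but with median centring in place of quantile normalization the second change was 0.62 and no longer called (adjusted p = 0.103).

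Timd4 encodes a phosphatidylserine receptor for the uptake of dying cells. It read 530, 569 and 575 in TGFB KO livers, against 72.6, 84.6 and 102 in WT livers (2.41 ± 0.21, adjusted p = 1.60e-05). It read 307, 463 and 369 in IFNko TGFB1 KO livers, against 51.5, 83.0 and 48.3 in INFko TGFB+ livers (2.30 ± 0.21, adjusted p = 4.09e-05). The rise was therefore close in size to those of Msr1 and Cd163, with no overlap. Vsig4, the complement receptor of the immunoglobulin family, read 2242, 2655 and 3580 in TGFB KO livers, against 1125, 924 and 1768 in WT livers (1.21 ± 0.23, 2.32-fold, adjusted p = 0.00294). It read 3586, 4930 and 4719 in IFNko TGFB1 KO livers, against 1227, 1187 and 1189 in INFko TGFB+ livers (2.05 ± 0.23, 4.15-fold, adjusted p = 0.000152). Vsig4 was the one gene of the 10 that read higher in every IFNko TGFB1 KO liver than in any TGFB KO liver.

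C1q is built from the A, B and C chains, encoded by C1qa, C1qb and C1qc, which are neighbours on chromosome 4. C1qa read 5456, 5216 and 6068 in TGFB KO livers, against 974, 796 and 987 in WT livers (2.55 ± 0.16, 5.85-fold, adjusted p = 2.88e-06). In IFNko TGFB1 KO livers it read 3613, 4547 and 3756, against 740, 787 and 964 in INFko TGFB+ livers (2.44 ± 0.16, 5.43-fold, adjusted p = 6.99e-06). C1qb had signals of 4732, 4387 and 4874 in TGFB KO livers, against 755, 682 and 769 in WT livers (2.64 ± 0.15, 6.21-fold, adjusted p = 1.73e-06). These 2 chains thus changed by nearly the same factor.

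In IFNko TGFB1 KO livers C1qb read 2646, 3782 and 2938, against 689, 677 and 721 in INFko TGFB+ livers (2.31 ± 0.15, 4.96-fold, adjusted p = 6.99e-06). C1qc read 6261, 5945 and 4685 in TGFB KO livers, against 987, 867 and 775 in WT livers (2.61 ± 0.20, 6.11-fold, adjusted p = 7.40e-06). It read 2408, 4006 and 2772 in IFNko TGFB1 KO livers, against 612, 599 and 614 in INFko TGFB+ livers (2.44 ± 0.20, 5.42-fold, adjusted p = 2.22e-05). The changes of the 3 chains lay between 2.55 and 2.64 in TGFB KO and between 2.31 and 2.44 in IFNko TGFB1 KO, a spread smaller than their standard errors. The other 2 C1qb probe sets gave 3.09 and 2.26 in TGFB KO, and 2.49 and 2.39 in IFNko TGFB1 KO.

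**Figure D2:**
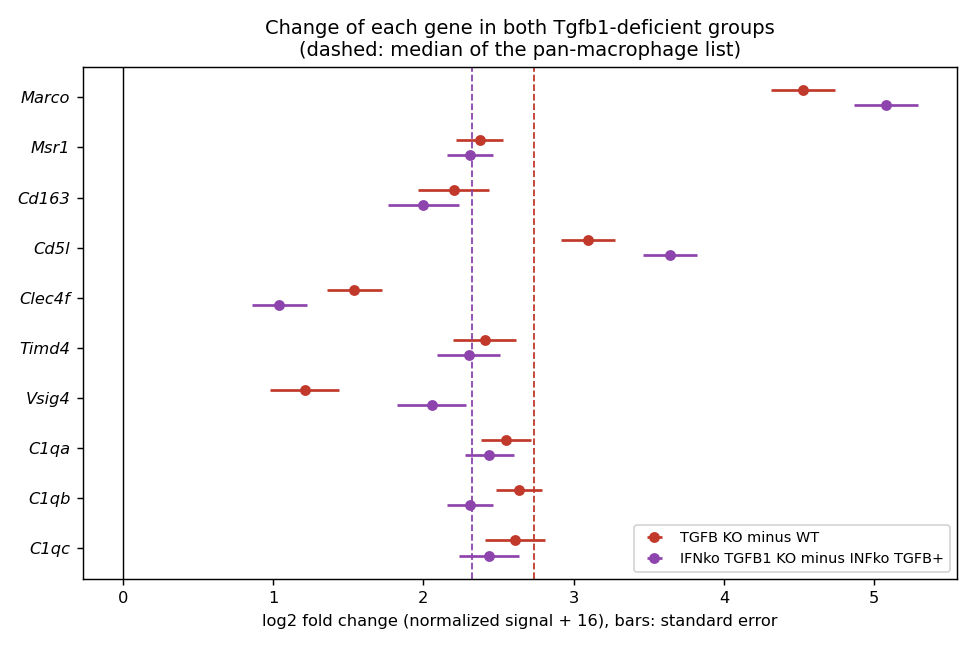
Log2 fold change of normalized signal + 16 (x axis) of each of the 10 genes, with bars of 1 standard error, for TGFB KO minus WT and for IFNko TGFB1 KO minus INFko TGFB+. Dashed lines mark the pan-macrophage medians of 2.74 and 2.33. Marco and Cd5l lie to the right of both lines, Clec4f and Vsig4 to the left of both.

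Because members of the group moved together, the promoters of 4 of them are shown, those of Marco and Cd5l with the largest changes and those of the neighbouring C1qb and C1qc. Each is 250 bases before to 50 bases after the gene's start, 5′ to 3′ on the gene's strand, from RefSeq on the build GRCm38.p6. Capitals mark GAGGAA, the core of the motif bound by PU.1 (Spi1), a transcription factor that macrophages need, or its complement TTCCTC on the opposite strand. RefSeq's table held the promoters of 8 of the 10 genes, without Msr1 and C1qa. The windows are chr1:120504975-120505274 (minus strand) for Marco, chr3:87357631-87357930 (plus strand) for Cd5l, chr4:136886151-136886450 (minus strand) for C1qb and chr4:136892865-136893164 (minus strand) for C1qc.
Marco: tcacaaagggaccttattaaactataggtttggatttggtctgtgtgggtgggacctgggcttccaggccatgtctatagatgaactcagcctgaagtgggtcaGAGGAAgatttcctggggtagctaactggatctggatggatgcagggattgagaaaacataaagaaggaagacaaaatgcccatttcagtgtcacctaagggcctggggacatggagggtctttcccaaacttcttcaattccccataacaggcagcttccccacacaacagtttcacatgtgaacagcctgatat
Cd5l: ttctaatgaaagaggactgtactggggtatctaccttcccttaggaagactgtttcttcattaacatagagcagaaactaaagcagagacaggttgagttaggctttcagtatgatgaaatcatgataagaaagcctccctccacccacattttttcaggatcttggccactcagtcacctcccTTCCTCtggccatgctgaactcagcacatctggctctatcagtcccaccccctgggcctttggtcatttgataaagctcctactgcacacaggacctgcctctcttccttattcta
C1qb: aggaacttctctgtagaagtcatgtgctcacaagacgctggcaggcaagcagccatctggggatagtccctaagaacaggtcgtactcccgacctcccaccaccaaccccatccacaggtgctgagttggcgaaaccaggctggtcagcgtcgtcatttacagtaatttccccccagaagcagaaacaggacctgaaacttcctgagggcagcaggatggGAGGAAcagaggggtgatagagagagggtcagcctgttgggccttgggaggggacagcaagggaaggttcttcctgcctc
C1qc: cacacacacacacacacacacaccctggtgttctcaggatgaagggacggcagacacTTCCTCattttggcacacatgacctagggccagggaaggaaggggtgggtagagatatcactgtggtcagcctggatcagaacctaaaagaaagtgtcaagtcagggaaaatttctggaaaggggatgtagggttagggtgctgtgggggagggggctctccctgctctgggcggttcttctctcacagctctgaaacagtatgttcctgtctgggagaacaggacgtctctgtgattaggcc

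GAGGAA, searched on both strands, was present in 5 of the 8 promoters, those of these 4 genes and of Vsig4, and in 28.3% of 32851 promoters of the same length. Its last base lay 141 bases before the start in Marco, 61 in Cd5l, 25 in C1qb and 188 in C1qc. TGCTGA, part of the site bound by MAF family factors, was in 5 of the 8 (Cd5l, Clec4f, Timd4, Vsig4 and C1qb) and in 19.5% of all promoters. TTCNNNGAA, the site of STAT factors, was in none of the 8 and in 8.3% of all promoters. GTCTAGAC, bound by SMAD factors, was also in none of the 8, and in 0.213% of all promoters. A match describes letters in this window and not a bound site. With 8 promoters and shares of 8.3% and 0.213%, the absences cannot show whether STAT or SMAD factors act on these genes.

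The rises in TGFB KO and in IFNko TGFB1 KO were compared directly, as the difference of the 2 log2 changes, which asks whether the change with Tgfb1 loss depended on Ifng. None of the 10 differences was called by limma (adjusted p from 0.326 to 0.939), 1 of 10 had an unadjusted p under 0.05, and 0.87% of all tested genes were called. That gene was Vsig4, with 0.84 and a 95% interval from 0.13 to 1.55 (IFNko TGFB1 KO effect minus TGFB KO effect; unadjusted p = 0.024). Marco and Cd5l each differed by 0.55, with intervals of -0.11 to 1.21 and -0.01 to 1.10, and Clec4f by -0.50, with an interval of -1.07 to 0.06. For C1qa the interval ran from -0.62 to 0.40, for C1qb from -0.80 to 0.15 and for C1qc from -0.79 to 0.45. The intervals of Msr1 (-0.55 to 0.42), Cd163 (-0.93 to 0.53) and Timd4 (-0.76 to 0.55) also spanned 0. With 3 arrays per group, a difference anywhere within these bounds remains possible.

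Set side by side, the 2 groups of Tgfb1-deficient livers differed less than either did from its controls. In IFNko TGFB1 KO livers against TGFB KO livers, none of the 10 genes was called by limma, while 5 had an unadjusted p under 0.05 and 5.36% of all tested genes were called, 2.54% higher and 2.82% lower. Of the 10 changes 8 were negative, with a median of -0.30, and 6 genes (Msr1, Clec4f, Timd4, C1qa, C1qb and C1qc) read lower in every IFNko TGFB1 KO liver than in any TGFB KO liver, as 9.93% of tested genes did. C1qc was nearest the threshold among these, at -0.68 ± 0.20 (adjusted p = 0.0760), followed by Clec4f at -0.58 ± 0.18 (adjusted p = 0.0984). Vsig4 went the other way, at 0.79 ± 0.23 (adjusted p = 0.0746), and read higher without overlap, as 13.2% of tested genes did. These 3 values stand at the edge of the call. C1qc was called on the deposited scaling (-0.90, adjusted p = 0.0269), with median centring (-1.11, adjusted p = 0.0402), with a pseudocount of 64 (-0.67, adjusted p = 0.0371) and without IFNko TGFB1 KO replicate 2 (-0.87, adjusted p = 0.0233). Clec4f was called on the deposited scaling (-0.69, adjusted p = 0.0459), and Vsig4 with a pseudocount of 64 (0.78, adjusted p = 0.0353).

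The array IFNko TGFB1 KO 2 read highest of its group for all 10 genes, on the deposited and on the normalized scale. The array that read lowest depended on the scale, since it was IFNko TGFB1 KO 1 for all 10 genes on the deposited scale and for 3 on the normalized scale, where IFNko TGFB1 KO 3 was lowest for the other 7. Over the 12 arrays each gene's normalized level correlated with the mean of the other 9 at a Pearson r from 0.878 for Vsig4 and 0.948 for Clec4f to 0.996 for Msr1 and C1qb. These correlations largely follow the split into Tgfb1-deficient and Tgfb1-positive livers, which all 10 genes share.

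In INFko TGFB+ livers against WT livers, none of the 10 was called by limma, and 0% of tested genes were called. The changes were negative for 9 of the 10 (median -0.21), and 3 had an unadjusted p under 0.05, namely Marco at -0.78 ± 0.21, C1qc at -0.51 ± 0.20 and Cd5l at -0.44 ± 0.18 (adjusted p = 0.910 each). Marco, Msr1, Cd5l and C1qc read lower in every INFko TGFB+ liver than in any WT liver, as did 6.67% of tested genes, while 6.47% read higher without overlap.

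The genes of general macrophage identity gave a yardstick for these changes. All 12 pan-macrophage markers rose in TGFB KO (median 2.74) and in IFNko TGFB1 KO (median 2.33). Their summed signal was 38102 to 43609 in TGFB KO livers against 5301 to 6847 in WT livers, and 23313 to 35221 in IFNko TGFB1 KO livers against 5692 to 5889 in INFko TGFB+ livers. Marco lay above the pan-macrophage median by 1.79 in TGFB KO and by 2.75 in IFNko TGFB1 KO, and Cd5l by 0.36 and 1.32. Clec4f lay below it, at -1.20 and -1.29, and Vsig4 at -1.52 and -0.27. The other 6 lay between -0.53 and 0.11 of it. These distances are descriptions with no test.

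The genes with the pattern most like the mean of the 10, by Pearson r over the 12 arrays, were Lcp2 (0.997), a signalling adaptor of blood cells, Lgals3 (0.993), which encodes galectin-3, Tyrobp (0.992), an adaptor of myeloid receptors, Fyb (0.992), Adgre1 (0.992), which encodes F4/80, and Cd52 (0.990). Lgals3 changed by 4.73 ± 0.24 in TGFB KO and 4.47 ± 0.24 in IFNko TGFB1 KO, near the changes of Marco. Adgre1 changed by 1.92 ± 0.19 and 1.81 ± 0.19, less than most of the 10.

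The macrophage activation list, of cytokine, chemokine and costimulation genes, was set against the 10 resident genes. In TGFB KO livers 11 of 13 tested genes rose and none fell (median 2.01), as did all 7 that the filter at the 60th percentile left to test, and in IFNko TGFB1 KO livers 7 of 13 rose and none fell (median 1.08). The summed signal of the 15 list genes on the array was 8674 to 12429 in TGFB KO livers against 493 to 972 in WT livers, and 1556 to 2304 in IFNko TGFB1 KO livers against 459 to 615 in INFko TGFB+ livers. The difference of the 2 effects was called lower for 3 of 13, against 0 of the 10 resident genes, while 0.627% of tested genes were called lower there. Both sets were chosen with earlier results of these data known, so this contrast describes the chosen genes and is no independent test.

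Cxcl9 encodes a T cell attracting chemokine. Its signal was 6135, 5350 and 6907 in TGFB KO livers, against 276, 106 and 302 in WT livers (4.64 ± 0.29, adjusted p = 2.67e-06). It was 76.5, 54.0 and 70.0 in IFNko TGFB1 KO livers, against 42.3, 55.8 and 43.3 in INFko TGFB+ livers (0.13 ± 0.29, adjusted p = 0.777). The TGFB KO livers alone were high, and the difference of effects was -4.50 ± 0.42 (adjusted p = 0.00037). Acod1, whose product makes itaconate in activated macrophages, had 1065, 702 and 1009 in TGFB KO livers, against 64.4, 1.9 and 3.3 in WT livers (4.92 ± 0.47, adjusted p = 2.62e-05). It had 31.9, 11.0 and 3.4 in IFNko TGFB1 KO livers, against 1.5, 1.9 and 1.3 in INFko TGFB+ livers (0.59 ± 0.47, adjusted p = 0.386), at signals near the bottom of the scale. Its difference of effects was -4.32 ± 0.66 (adjusted p = 0.0105), and -4.65 and not called with a pseudocount of 1 (adjusted p = 0.237).

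Il1b, the interleukin-1β gene, read 1462, 910 and 1317 in TGFB KO livers, against 93.1, 52.6 and 80.9 in WT livers (3.71 ± 0.26, adjusted p = 4.23e-06). It read 481, 443 and 299 in IFNko TGFB1 KO livers, against 102, 86.2 and 93.3 in INFko TGFB+ livers (1.89 ± 0.26, adjusted p = 0.000445). It thus rose in both, and the difference of effects was -1.82 ± 0.36 (adjusted p = 0.042). That difference missed the threshold with a pseudocount of 1, with no filter on dim probe sets and with 10 of the 12 arrays left out in turn (adjusted p up to 0.127). Not every activation gene followed this pattern. Ccl2, which attracts monocytes, changed by 3.61 ± 0.39 and 2.81 ± 0.39, and the costimulatory gene Cd86 by 2.01 ± 0.27 and 1.93 ± 0.27, with no call for the difference of effects (adjusted p = 0.621 and 0.955). In the direct comparison of IFNko TGFB1 KO livers with TGFB KO livers, 4 of 13 activation genes fell, Cxcl9 (-6.30 ± 0.29), Acod1 (-5.08 ± 0.47), Il1b (-1.52 ± 0.26) and Ptgs2 (-2.34, adjusted p = 0.00468), the last of which was named after its value was seen. The fall of Il1b was not called when only these groups were fitted (adjusted p = 0.0545), and 2 genes fell of the 7 tested with the filter at the 60th percentile. Over all tested genes 2.82% were called lower there, and 3 of 12 pan-macrophage genes also fell, Aif1 (-1.29, adjusted p = 0.00161), Mpeg1 (-1.50, adjusted p = 0.00366) and Fcgr1 (-1.32, adjusted p = 0.0247). Without IFNko TGFB1 KO replicate 2, 5 of the 12 fell.

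**Figure D3:**
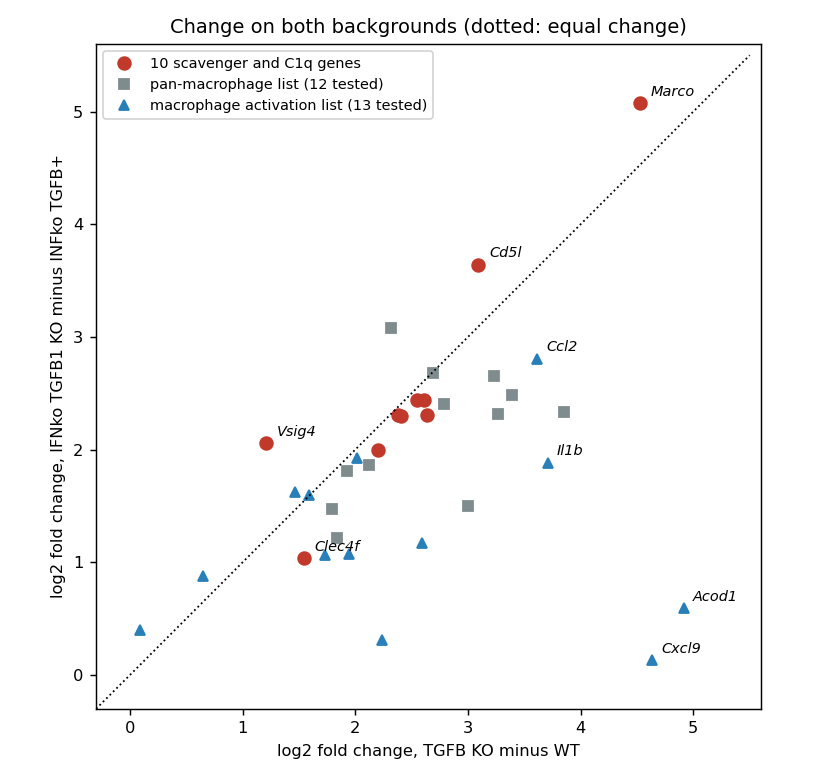
Log2 fold change in IFNko TGFB1 KO minus INFko TGFB+ (y axis) against that in TGFB KO minus WT (x axis), for the 10 genes, 12 pan-macrophage and 13 activation genes, with a dotted line of equal change. The 10 genes lie within 0.84 of the line, while Cxcl9 (4.64 on x, 0.13 on y) and Acod1 (4.92 on x, 0.59 on y) lie far below it.

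The regulators of Kupffer cell identity moved in part. Of 12 tested, 5 rose in TGFB KO (median 0.54) and 6 in IFNko TGFB1 KO (median 0.80), or 3 with median centring, and none fell. Spi1, the gene of PU.1, changed by 2.68 ± 0.26 and 2.43 ± 0.26, and Spic, which red pulp macrophages of the spleen need, by 2.24 ± 0.21 and 1.92 ± 0.21. Irf8, an interferon-inducible factor of the macrophage lineage, read 2900, 1978 and 2344 in TGFB KO livers, against 221, 168 and 216 in WT livers (3.43 ± 0.21, adjusted p = 2.08e-06). It read 485, 767 and 517 in IFNko TGFB1 KO livers, against 200, 182 and 210 in INFko TGFB+ livers (1.48 ± 0.21, adjusted p = 0.000538). Irf8 was thus high in both, and its difference of effects was called (-1.95 ± 0.29, adjusted p = 0.0096). Cebpb, a factor of myeloid and liver cells, changed by 1.60 ± 0.20 and 1.01 ± 0.20, the second of these not called with median centring (0.62, adjusted p = 0.151).

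Of 13 other Kupffer cell enriched genes, 9 rose in TGFB KO (median 1.89), and 10 rose and 1 fell in IFNko TGFB1 KO (median 1.97). Clec1b, a lectin receptor also found on platelets, changed by 2.71 ± 0.20 and 2.83 ± 0.20. Other scavenger receptors moved less as a list, where 12.2% of all tested genes were called higher in TGFB KO and 12.7% in IFNko TGFB1 KO. Of 13 tested, 7 rose in TGFB KO (median 0.75), or 3 without WT replicate 1 and 4 without TGFB KO replicate 2, and 5 rose in IFNko TGFB1 KO (median 0.45), while none fell. Cd68, a lysosomal scavenger receptor gene of macrophages, changed by 2.79 and 2.41, and Mrc1, the mannose receptor gene, by 0.86 ± 0.23 and 1.33 ± 0.23. The Mrc1 change in TGFB KO missed the call (adjusted p from 0.0534 to 0.0707) when one of TGFB KO replicates 2 and 3 or of WT replicates 1 and 2 was left out.

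Of 15 apoptotic cell uptake genes, to whose function Timd4 belongs, 6 rose in TGFB KO (median 0.43) and 5 in IFNko TGFB1 KO (median 0.60), and none fell. The receptor kinase genes Mertk and Axl were among them, Mertk at 1.84 ± 0.20 and 1.21 ± 0.20 and Axl at 1.42 ± 0.30 and 1.67 ± 0.30 (0.96 in IFNko TGFB1 KO, still called, with the mean of its probe sets). Without WT replicate 2, 4 genes rose in TGFB KO. With all arrays, 12.2% of all tested genes were called higher in TGFB KO and 12.7% in IFNko TGFB1 KO.

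The complement protein genes outside C1q moved in both directions. Of 17 tested complement protein genes, 4 rose and 2 fell in TGFB KO (median -0.09), and 2 rose and 9 fell in IFNko TGFB1 KO (median -0.80). The counts of falls ranged from 1 to 7 and from 4 to 11 over the alternatives, with 1 in TGFB KO without TGFB KO replicate 1. Over all tested genes, 12.2% were called higher and 11.9% lower in TGFB KO, so the falls there were near that share. In IFNko TGFB1 KO the shares were 12.7% and 13.1%. C1s1, the protease gene of the C1 complex, read 2327, 2949 and 2569 in TGFB KO livers, against 2736, 2686 and 2583 in WT livers (0.06 ± 0.22, adjusted p = 0.888). It read 1059, 850 and 1642 in IFNko TGFB1 KO livers, against 2442, 2522 and 2456 in INFko TGFB+ livers (-0.94 ± 0.22, adjusted p = 0.00804). The livers with more C1q RNA thus had overlapping C1s1 levels in the first pair and lower C1s1 levels in the second.

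C2, which C1s cleaves, read 1232, 1557 and 1224 in TGFB KO livers, against 641, 569 and 519 in WT livers (1.19 ± 0.18, adjusted p = 0.000618). It read 318, 465 and 446 in IFNko TGFB1 KO livers, against 531, 555 and 522 in INFko TGFB+ livers (-0.38 ± 0.18, adjusted p = 0.138). The C2 effects differed by -1.57 ± 0.25 (adjusted p = 0.0133), or adjusted p = 0.0537 without INFko TGFB+ replicate 2. C6, of the membrane attack complex, changed by 3.77 ± 0.37 and 2.64 ± 0.37, and Cfp, the properdin gene, by 1.89 ± 0.24 and 2.32 ± 0.24. With the mean of its probe sets the Cfp change in IFNko TGFB1 KO was 0.93 and not called (adjusted p = 0.0529). C8g, also of that complex, changed by -2.18 ± 0.44 in TGFB KO and by -2.40 ± 0.44 in IFNko TGFB1 KO. Among 11 complement receptor and regulator genes, 7 rose and 1 fell in TGFB KO (median 1.04), and 6 rose and 1 fell in IFNko TGFB1 KO (median 1.37). The fall in TGFB KO was not called without WT replicate 2 or TGFB KO replicate 1 or 2. The integrin gene Itgb2, part of complement receptors 3 and 4, changed by 2.70 ± 0.21 and 3.07 ± 0.21, and the anaphylatoxin receptor gene C3ar1 by 2.05 ± 0.25 and 1.86 ± 0.25.

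Markers of other cell types moved beside the 10 genes. Of 11 tested monocyte markers, 7 rose and 1 fell in TGFB KO (median 1.28), and 8 rose and none fell in IFNko TGFB1 KO (median 1.64). The fall, of Cx3cr1, a receptor gene of patrolling monocytes (-1.10 ± 0.37, adjusted p = 0.048), was not called without WT replicate 1 or 3 or TGFB KO replicate 2 or 3. The summed signal of the monocyte markers was 27965 to 37040 in TGFB KO livers against 16746 to 22367 in WT livers, and 24240 to 46171 in IFNko TGFB1 KO livers against 17599 to 22981 in INFko TGFB+ livers. This sum mostly follows its brightest genes. S100a8 alone read 11054, 8558 and 13645 in TGFB KO livers, against 4421, 3912 and 2240 in WT livers. Which cells gave the sum was not tested, so it is no measure of monocytes. Ccr2, the chemokine receptor of monocytes, read 271, 285 and 457 in TGFB KO livers, against 41.1, 39.5 and 36.4 in WT livers (2.64 ± 0.20, or 1.58 with the mean of its probe sets). It read 395, 535 and 451 in IFNko TGFB1 KO livers, against 35.9, 47.9 and 39.4 in INFko TGFB+ livers (2.99 ± 0.20). Ccr2 was thus high in the same livers as the 10 genes, and the part of infiltrating monocytes in their rise was not tested.

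Hepatocyte markers, 9 of them tested, fell in 3 cases in TGFB KO (median 0.00) and in 5 in IFNko TGFB1 KO (median -0.65), and none rose. The count in TGFB KO was 1 without WT replicate 1, WT replicate 2 or TGFB KO replicate 2 and 0 without TGFB KO replicate 1. The summed signal was 92270 to 116518 in TGFB KO livers against 135326 to 144027 in WT livers, and 68544 to 111394 in IFNko TGFB1 KO livers against 122487 to 148845 in INFko TGFB+ livers. The part of a smaller share of hepatocyte RNA in the rise of the 10 genes was not tested. Of 9 liver endothelial markers, 2 rose and 2 fell in TGFB KO, and 3 rose in IFNko TGFB1 KO, or 1 with median centring. Over all tested genes, 12.2% were called higher and 11.9% lower in TGFB KO, and 12.7% and 13.1% in IFNko TGFB1 KO. The summed signal of 10 endothelial genes, 1 of them below the filter, was 5591 to 6320 in TGFB KO livers against 5095 to 5740 in WT livers, and 5984 to 7990 in IFNko TGFB1 KO livers against 5157 to 5419 in INFko TGFB+ livers. In TGFB KO, 1 rise was called without WT replicate 2 or 3 and without either of TGFB KO replicates 1 and 2. Leaving out WT replicate 2 or one of TGFB KO replicates 2 and 3 left 1 fall. Of 5 dendritic cell markers, 2 rose in TGFB KO and 1 in IFNko TGFB1 KO, or 2 there without IFNko TGFB1 KO replicate 1. With all arrays, no gene of the lists was called in INFko TGFB+ against WT by limma, but without WT replicate 2 Cxcl9 was called lower there (-2.22, adjusted p = 0.00341).

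**Figure D4:**
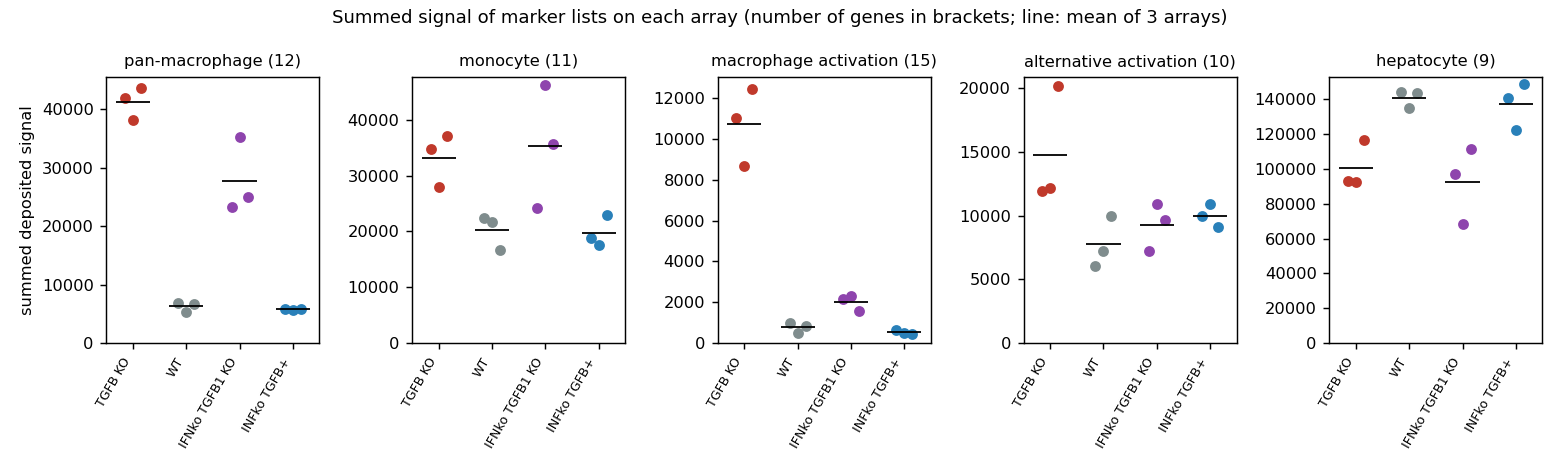
Summed deposited signal (y axis, arbitrary units) of 5 marker lists, with 1 point per array, 3 arrays per group and a line at the group mean. Pan-macrophage sums are high in both Tgfb1-deficient groups, while activation sums reach 8674 to 12429 in TGFB KO and 1556 to 2304 in IFNko TGFB1 KO.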

How the data were processed

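Trizol-extracted total RNA of 12 livers was biotin-labelled in one cycle, per the labels' protocols, and measured on 12 arrays. The deposited values are a linear signal intensity per probe set, and on every array their mean without the lowest and highest 2 percent is about equal, so the arrays had been scaled alike before deposit. Neither the algorithm behind the signal nor its scaling target is stated in the labels or files used. GEO's platform annotation, with symbols updated by gene ID through RefSeq's table, gave 34958 probe sets 1 symbol, 932 several and 9211 none. A pseudocount of 16 was added, log2 taken and the arrays quantile normalized. The pseudocount makes the fold changes of dim genes too small. Genes whose mean lay at or above the 40th percentile of probe sets (5.25) were tested in limma 3.58.1 (R 4.3.3) over all 4 groups, two-sided, with Benjamini-Hochberg adjustment, and the steps were tested on simulated data. Each array is 1 mouse, and replicate 1 of INFko TGFB+ has no number in its label. The number of arrays limits the precision.

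The 10 genes, the gene lists and the tests were chosen with earlier results of these data known. Named beside the 10 genes are Tgfb1, Ifng, up to 4 genes per list with the smallest p in each of the first 2 comparisons, and the 6 genes most like the mean of the 10. Cx3cr1, Fcgr1, Folr2, Nr1h3 and Ptgs2 were named after their values were seen. TGFB KO against WT shares arrays with the comparisons of IFNko TGFB1 KO with TGFB KO and of INFko TGFB+ with WT, so these are not independent. Alternatives covered the normalization, pseudocount, filter, probe set rule, replicate number as a block, samples in the fit and each array left out, which was then renormalized. For the lists and named genes outside the 10 they were added after seeing the data. Same-numbered arrays of different groups had deviations from their group means that correlated between -0.08 and 0.34 (4 of 18 pairs above 0.1). Differently numbered arrays correlated between -0.23 and 0.20 (2 of 36 pairs above 0.1). These values do not settle whether the numbers pair the mice, and the main fit did not pair them.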

Additional observations from a re-analysis of the deposited data

Results flagged for a closer look

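The change with Tgfb1 loss differed between livers labelled as lacking Ifng and livers with intact Ifng for 5 of the genes named, by limma's test of the difference itself, and for none of the 10 resident genes. The difference (IFNko TGFB1 KO minus INFko TGFB+, less TGFB KO minus WT) was -4.50 for Cxcl9, -4.32 for Acod1, -1.95 for Irf8, -1.82 for Il1b and -1.57 for C2 on the log2 scale. All 5 rose in TGFB KO, and Irf8 and Il1b also rose in IFNko TGFB1 KO. The differences of Cxcl9 and Irf8 kept their call under every alternative run, while those of Acod1, Il1b and C2 each missed the threshold under at least 1. Vsig4 differed most among the resident genes, at 0.84, without passing (adjusted p = 0.326). The 10 genes and the lists behind the named genes were chosen with earlier results of these data known.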

How the results depend on the processing

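For the 10 genes, 800 values were recomputed, over 5 comparisons and the alternatives that apply to each. Of these, 793 kept their side of the threshold, 1 lost its call and 6 gained one, and these 7 are given above. No value called in the main fit changed direction. Some uncalled values did, as Cd5l in IFNko TGFB1 KO against TGFB KO (0.11 as reported, -0.26 at the lowest) and Vsig4 in INFko TGFB+ against WT (-0.06 as reported, 0.18 at the highest). The count of the 10 called in IFNko TGFB1 KO against TGFB KO, 0 as reported, was 2 with the deposited scaling, 1 with median centring, 2 with a pseudocount of 64, and 0 to 1 with each array left out. Over all genes, the 111 calls for the difference of effects became 57 with a pseudocount of 1, 212 with one of 64, and 46 to 165 with each array left out. The 684 calls for IFNko TGFB1 KO against TGFB KO became 213 when only those groups were fitted, and 320 to 728 with each array left out. INFko TGFB+ against WT had 0 to 2 calls, TGFB KO against WT 2183 to 2591 (3077 with all arrays) and IFNko TGFB1 KO against INFko TGFB+ 2267 to 3520 (3292 with all arrays) with each array left out. With the replicate block, 10, 10, 0, 0 and 0 of the 10 genes and 3051, 3277, 84, 571 and 0 of all genes were called, in the order TGFB KO against WT, IFNko TGFB1 KO against INFko TGFB+, difference of these effects, IFNko TGFB1 KO against TGFB KO, INFko TGFB+ against WT. Median centring moved the median of all genes to -0.15 in IFNko TGFB1 KO against INFko TGFB+, -0.25 in the difference of effects, -0.14 in IFNko TGFB1 KO against TGFB KO and 0.10 in INFko TGFB+ against WT. Clec4g, an endothelial lectin gene, reversed to 0.042 in TGFB KO against WT with the mean of its probe sets (-0.64 as reported). The cause of these shifts was not tested. Signals near the bottom of the scale, as of Acod1 in 3 groups, limit what their fold changes show.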

Other observations

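Genes of alternative macrophage activation, which IL-4 and IL-13 induce, moved in part. Of 7 tested, 3 rose in TGFB KO (median 0.84) and 5 in IFNko TGFB1 KO (median 1.77), and none fell. Over all tested genes, 12.2% and 12.7% were called higher in these comparisons. The count in TGFB KO was 1 without WT replicate 1, WT replicate 2 or TGFB KO replicate 3, and that in IFNko TGFB1 KO was 3 without INFko TGFB+ replicate 2 or IFNko TGFB1 KO replicate 2. The TGFB KO median is the value of Arg1, at 0.84 ± 0.25 there (adjusted p = 0.0296, limma). In IFNko TGFB1 KO it changed by -0.57 ± 0.25 and was not called. Arg1 read 4780, 6042 and 8739 in WT livers, far above Retnla. The summed signal of the list was 6035, 7250 and 9992 in these livers, so this sum mostly follows Arg1 there. Whether macrophages were the source of the Arg1 signal was not tested. Ccl24, an eosinophil chemokine gene, changed by 3.10 ± 0.27 in TGFB KO and 1.97 ± 0.27 in IFNko TGFB1 KO. Retnla read 30.7, 23.5 and 15.5 in TGFB KO livers, against 85.7, 47.0 and 14.3 in WT livers, and 140, 1004 and 161 in IFNko TGFB1 KO livers, against 40.4, 9.7 and 38.1 in INFko TGFB+ livers. It was thus high in IFNko TGFB1 KO livers alone, most in replicate 2, and its difference of effects was 3.26 ± 0.97 (adjusted p = 0.191, limma).

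Other Kupffer cell enriched genes differed in both directions between IFNko TGFB1 KO livers and TGFB KO livers. Of 13 tested, 2 rose and 4 fell, where 2.54% of tested genes were called higher and 2.82% lower. The falls were of Il18bp, which encodes an inhibitor of IL-18 (-1.55, adjusted p = 0.00616), the metal transporter gene Slc11a1 (-1.25, adjusted p = 0.0112), C6 (-1.47, adjusted p = 0.0437) and Ccl24 (-1.06, adjusted p = 0.0434). Without any 1 of the 3 TGFB KO arrays or of IFNko TGFB1 KO replicates 1 and 3, 2 fell. The rises were of Folr2 and Fabp7. Folr2, a folate receptor gene of resident macrophages, changed by 1.76 ± 0.22 between them (adjusted p = 0.000895, limma). Against their own controls its changes were -0.10 ± 0.22 in TGFB KO and 1.39 ± 0.22 in IFNko TGFB1 KO, and the difference of effects did not pass (1.49 ± 0.31, adjusted p = 0.055). Fabp7, a fatty acid binding protein gene, read 268, 385 and 215 in IFNko TGFB1 KO livers, against 104, 69.0 and 120 in TGFB KO livers (1.38 ± 0.27, adjusted p = 0.0125), or adjusted p = 0.0575 without TGFB KO replicate 2 and 0.0602 when only these groups were fitted.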
